A study of Papio anubis with 28 samples.

Results

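The epithelium and wall of bladder tissue regenerated on a cell-seeded graft were compared with those of an ileum graft placed in the bladder, by RNA sequencing of olive baboons (Papio anubis). The groups were taken from the sample titles. They hold 4 libraries of PRS regenerated tissue and 5 of ileum graft, 9 of the 28 libraries of the series. Each is from a different animal, the animals are coded F2, F3, M1 and M2 in the PRS arm and F1, F2, F3, M1 and M2 in the Entero arm, and all are labelled WT. In the PRS arm a scaffold was grafted that carried cells of primary bone marrow (mesenchymal stromal cells together with CD34+ haematopoietic stem and progenitor cells), and the library is of the regenerated tissue. In the Entero arm a segment of ileum was joined to the bladder, the operation called enterocystoplasty, and the library is of that segment. What PRS and the letters of the animal codes stand for, the time from surgery to sampling, the part of each graft that was taken and the ages of the animals are not stated in the labels. Ileum that never lay in a bladder is not analysed here, so the contrast holds the difference between organs together with any effect of the operations and the seeded cells, and these cannot be told apart.

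The bladder is lined by urothelium, a layered epithelium whose surface umbrella cells carry plaques of uroplakin proteins and hold urine back, with basal cells below that renew it. The ileum is lined by a single layer of absorptive cells with a brush border of microvilli, which take up nutrients and bile acids, mixed with goblet cells that make mucus, Paneth cells that make antimicrobial peptides and hormone-releasing enteroendocrine cells. Under both linings lie a fibroblast-rich stroma and smooth muscle, which in the bladder is the detrusor. Genes of the HOX clusters and of the T-box family record the position along the body at which an epithelium and its mesenchyme formed.

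Libraries held 24937773 to 30580073 counts in PRS regenerated tissue and 20975648 to 29575787 in ileum grafts. Values below are CPM, reads of a gene over the TMM-scaled size of its library and multiplied to a common scale, listed in the order of library number within each group. PRS regenerated library 2 stood apart from the others of its group. It held 7.19 CPM of EPCAM, a surface protein of most epithelia, against 290.5, 934 and 910.0 CPM in the other 3, and 31030 CPM of DES, the muscle intermediate filament desmin, against 9165, 1681 and 1524 CPM. The plot of list means shows the same library lowest of its group for the epithelial lists and highest for smooth muscle. PRS regenerated libraries 3 and 4, and ileum graft library 2, were low in muscle genes. In bulk tissue, fewer cells of a type and less RNA per cell cannot be told apart.

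**Figure D1:**
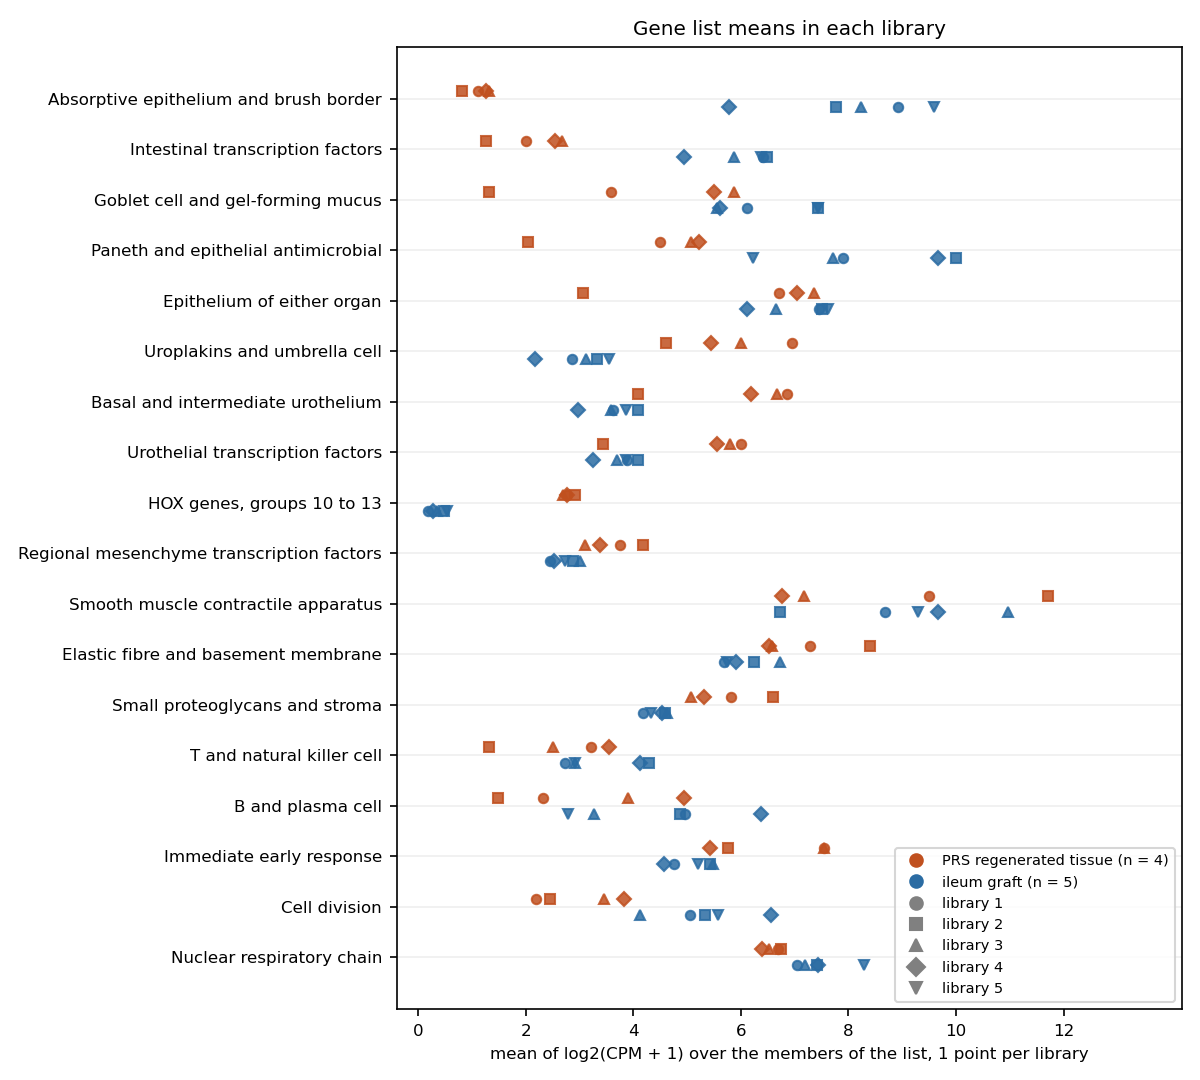
Mean of log2(CPM + 1) over the measured members of 18 gene lists (rows) in each library, with PRS regenerated tissue (4 libraries) above ileum graft (5 libraries) and the marker shape giving the library number. The absorptive list lies between 0.81 and 1.31 in PRS regenerated tissue and between 5.78 and 9.59 in ileum grafts, while smooth muscle overlaps, from 6.76 to 11.71 in PRS regenerated tissue and from 6.73 to 10.96 in ileum grafts.

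Of 17177 genes tested, 2392 (13.9%) differed at an adjusted p under 0.05, 1239 (7.21%) higher and 1153 (6.71%) lower in PRS regenerated tissue. The difference was 2-fold or more for 2087 of them, and 8-fold or more for 428 higher and 449 lower genes. Every PRS regenerated library lay above every ileum graft for 939 genes (5.47%) and below every one for 982 (5.72%). The median log2 fold change over all genes tested was 0.05, on the scale of PRS regenerated tissue over ileum graft used throughout. The genes with a symbol, a call and the largest falls without overlap were enzymes, transporters and peptides of the gut lining, REG1A, REG1B and SI among them. Among the largest rises were HOXD13, TBX5, EVX1, TMPRSS11E and CERS3. Against the native bladder of the same arm, by contrast, PRS regenerated tissue had 0 (0%) of the 17177 genes past the threshold in edgeR, with 613 at an unadjusted p under 0.05, and ileum grafts had 2582 (15%) against theirs. Graft and native libraries come from the same animals, and with the animal as a block in edgeR the count was 0 (0%) for PRS regenerated tissue, with 550 at an unadjusted p under 0.05, and 2169 (12.6%) for ileum grafts. These comparisons share libraries. The PRS regenerated libraries were uneven, with correlations between them from 0.794 to 0.965, so a count of 0 does not show that the tissue matched native bladder. How large a change the comparison with native bladder could detect was not tested.

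The counts of calls are given again below for other fits where they moved by 1.5 times or more. One fit took only the 9 libraries of the 2 groups, which called 1033 genes, and one took the animal as a random effect over grafts and native bladders (limma voom), which called 2070. The fit with the random effect also replaced edgeR with limma voom, and its consensus correlation within animals was 0.062. Voom without the animal was not run, so a call lost there cannot be assigned to the animal or to the change of test. The last took the animal as a fixed block, which tests how the grafts differ in their change from the native bladder of their own animals, and called 240. Of 146 called genes named in the text, 18, 30 and 111 lost their call in these 3 fits, and none changed sign where tested. With the 9 libraries alone, 160 of the 165 named genes followed, called or not, passed the filter on low counts. A gene without a test there is not counted as lost. The genes concerned are named for the first and second fit.

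**Figure D2:**
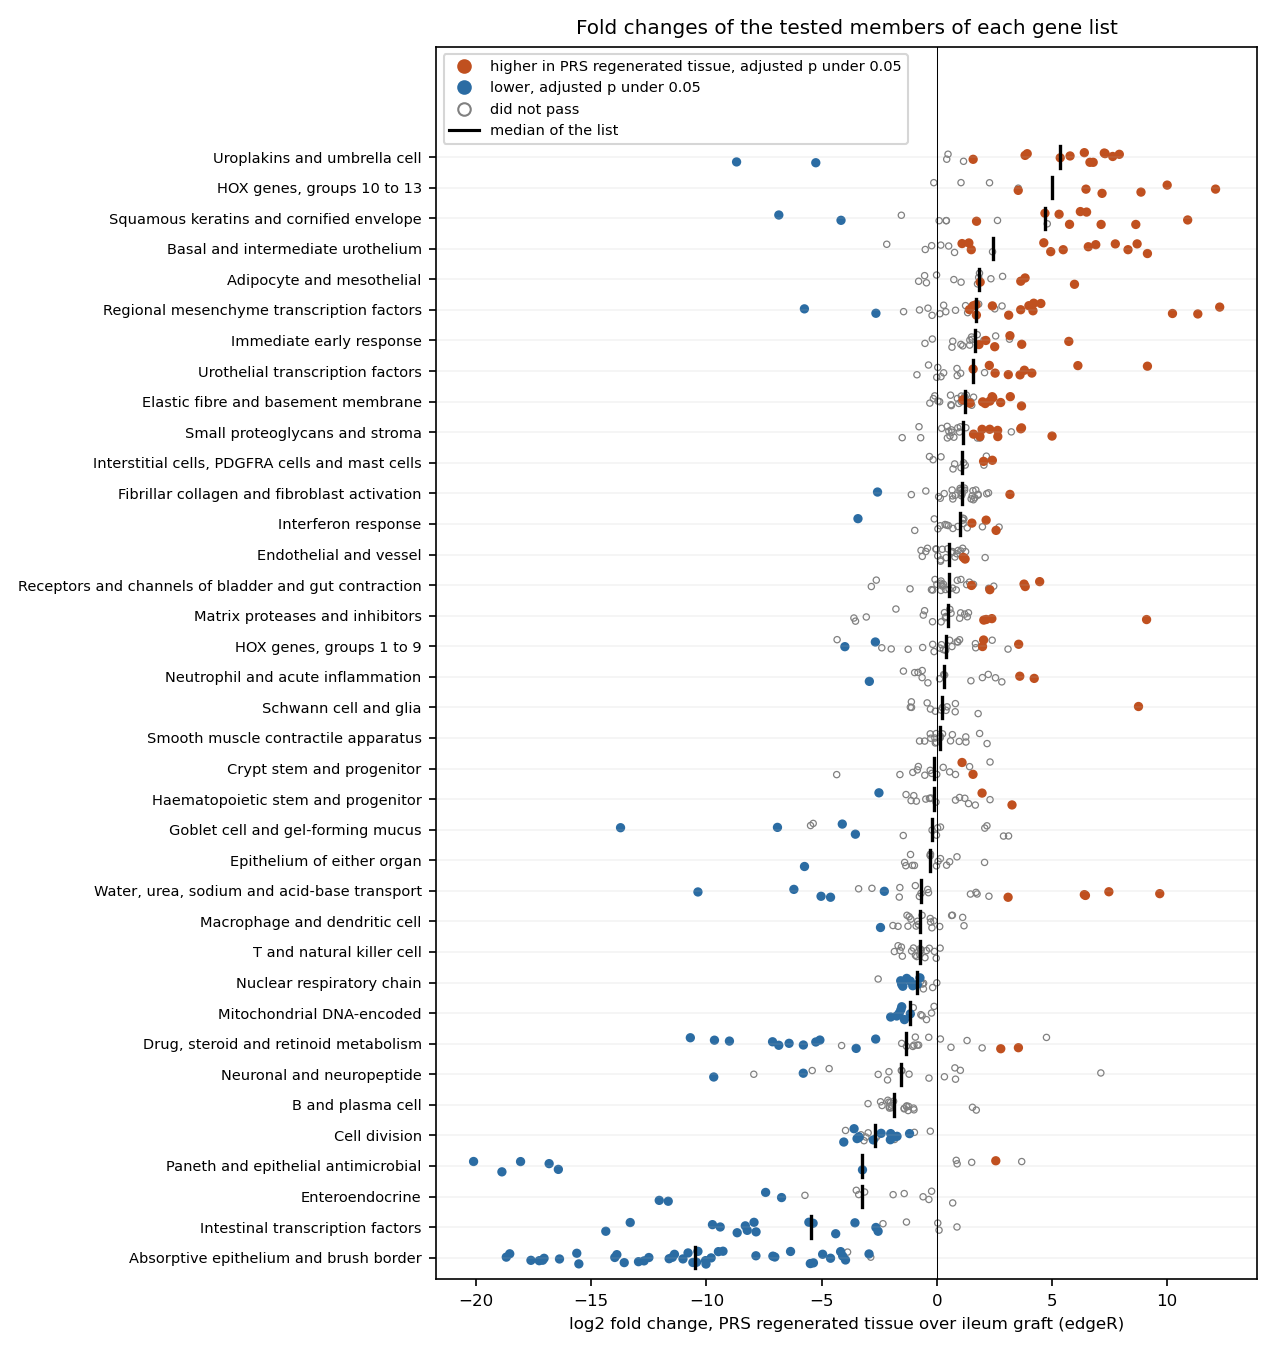
Log2 fold change of PRS regenerated tissue over ileum graft (x axis) for each tested member of the 37 gene lists (rows, ordered by median), with filled points for genes past an adjusted p of 0.05 and a bar at the median of the list. Uroplakins and umbrella cell genes have the highest median, 5.36, and absorptive genes the lowest, -10.51.

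Most transcription factors that set intestinal identity were lower in PRS regenerated tissue. Of 20 tested, 15 were called lower and 0 higher (median log2 fold change -5.46, against 0.05 over all genes), with the share called over all genes at 6.71% in that direction. In other fits the list had 4 lower with the fixed block. CDX2, the homeobox factor that specifies intestinal epithelium, had 0, 0, 0 and 0.0394 CPM in PRS regenerated tissue, against 164, 138, 129.9, 82.3 and 183 CPM in ileum grafts. A single read in PRS regenerated library 4 was all that was counted in that group, and the ratio of ileum graft to PRS regenerated tissue was 12230 with an exact 95% counting interval of 2195 to 483200, adjusted p = 8.48e-06. Its relative CDX1 had 0.52, 0, 0.843 and 1.97 CPM in PRS regenerated tissue, against 221, 314, 174, 173 and 374 CPM in ileum grafts. For CDX1 the log2 fold change was -8.23 ± 1.504 SE (adjusted p = 0.000496). HNF4A, the nuclear receptor of enterocytes and hepatocytes, was at 0 in 3 of the PRS regenerated libraries and at 0.324 CPM in the other, and at 36.4 to 182 CPM in ileum grafts (log2 fold change -9.74 ± 1.54 SE, adjusted p = 0.00017). The bile acid receptor NR1H4, also called FXR, did not overlap either (log2 fold change -8.67 ± 1.25 SE, adjusted p = 3.92e-05). ISX, a homeobox gene that in mice controls vitamin A uptake, had no read in PRS regenerated tissue and was at least 2815-fold lower there, counting 3 reads over the group in place of 0 (adjusted p = 4.21e-05). Throughout, such bounds and ratios of reads use library totals without TMM scaling, unlike the CPM. All 15 calls also had every PRS regenerated library below every ileum graft, which held for 5.72% of all genes. Among called genes a lack of overlap was common, at 1436 of 2392 in either direction. Leaving out 1 library moved the log2 fold change furthest to -9.06 for CDX1 without PRS regenerated library 4 and -14.05 for HNF4A without PRS regenerated library 3. The latter fit left no read of HNF4A in PRS regenerated tissue, so -14.05 depends on a prior count and does not measure a shift.

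Of 42 absorptive and brush border genes, 40 were called lower (95.2%, against 6.71% of all genes) and 0 higher. The median log2 fold change was -10.51 (-10.21 with the 10 genes that had no read in PRS regenerated tissue set to their bounds). For 37 of the 42, every PRS regenerated library lay below every ileum graft, against 5.72% of all genes. Refitted, the list had 12 lower with the fixed block. Among structural parts, VIL1, which encodes the actin bundler villin of microvilli, had 0.243, 0.519, 0.421 and 0.394 CPM in PRS regenerated tissue, against 838, 471, 703, 152 and 1393 CPM in ileum grafts. All PRS regenerated libraries were below 1 CPM and all ileum grafts above 100 (log2 fold change -10.80 ± 1.00 SE, adjusted p = 1.42e-07). The brush border myosin MYO1A fell likewise (log2 fold change -9.28 ± 0.94 SE, adjusted p = 5.27e-07). Among digestive enzymes, SI (sucrase-isomaltase) had no read in PRS regenerated tissue and 4046, 1530, 888, 208 and 2992 CPM in ileum grafts, at least 56050-fold lower (adjusted p = 1.48e-06). ANPEP, aminopeptidase N, had 2.95, 0.2, 2.43 and 8.48 CPM in PRS regenerated tissue, against 7626, 2370, 7124, 446 and 9573 CPM in ileum grafts. For ANPEP the log2 fold change was -10.59 ± 1.24 SE (adjusted p = 2.96e-06). The log2 fold change moved furthest, with 1 library left out, to -11.48 for ANPEP without PRS regenerated library 4.

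Uptake and handling of bile acids is a task of the ileum in particular. SLC10A2, the apical bile acid transporter, had no read in PRS regenerated tissue and 1002, 191, 409, 133 and 1852 CPM in ileum grafts, at least 20870-fold lower (adjusted p = 6.42e-06). FABP6, which carries bile acids inside the ileal enterocyte, had 0.139, 0, 0 and 0 CPM in PRS regenerated tissue, against 1894, 1146, 5689, 927 and 17770 CPM in ileum grafts. For FABP6 the log2 fold change was -17.05 ± 1.84 SE (adjusted p = 7.68e-06). Ileum graft library 5 had the most and library 4 the least of both. SLC6A19, the main transporter of neutral amino acids, was counted in PRS regenerated library 1 alone, at 0.0693 CPM, against 1328, 1046, 1356, 141 and 1501 CPM in ileum grafts, a ratio of 47000 with an exact 95% counting interval of 13010 to 388100. Of genes for fat, FABP1 and FABP2, which bind fatty acids, and APOA4, an apolipoprotein of chylomicrons, had no read in PRS regenerated tissue, falls of at least 50770-fold, 26680-fold and 18700-fold (adjusted p = 4.21e-05, 2.52e-07 and 0.00135). SMIM24 was lower by at least 13250-fold (adjusted p = 5.8e-07). The members without a call were EPS8L3 (log2 fold change -2.87 ± 1.42 SE, adjusted p = 0.188) and the glucose transporter SLC5A1 (log2 fold change -3.87 ± 2.09 SE, adjusted p = 0.232). SLC5A1 had 3.85, 0, 91.4 and 238 CPM in PRS regenerated tissue, against 2334, 898, 801, 174 and 1895 CPM in ileum grafts, so that PRS regenerated library 4 lay above ileum graft library 4. With 1 library left out, log2 fold changes moved as far as -20.18 for FABP6 without PRS regenerated library 1. That fit left no read of FABP6 in PRS regenerated tissue, so -20.18 depends on a prior count and does not measure a shift.

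The products of goblet cells did not move as a block. Of 15 tested genes of goblet cells and gel-forming mucus, 4 were called lower (26.7%, against 6.71% of all genes) and 0 higher. The median log2 fold change was -0.21. The calls in other fits were 0 lower with the fixed block. MUC5B, a gel-forming mucin, had 2.5, 0, 48.7 and 6.15 CPM in PRS regenerated tissue, against 2268, 3054, 1204, 348 and 1808 CPM in ileum grafts, with every PRS regenerated library below every ileum graft (log2 fold change -6.92 ± 1.599 SE, adjusted p = 0.00428). ZG16, a lectin-like protein of the mucus granule, was at 0, 0, 0 and 0.552 CPM in PRS regenerated tissue and at 1644, 1981, 630.2, 351 and 4725 CPM in ileum grafts (log2 fold change -13.73 ± 2.02 SE, adjusted p = 8.81e-05). The kallikrein KLK1 and REP15 were called as well, at log2 fold changes of -4.10 ± 0.80 SE and -3.54 ± 0.89 SE (adjusted p = 0.000965 and 0.00865). TFF3, a trefoil peptide, missed the threshold (log2 fold change -5.37 ± 1.84 SE, adjusted p = 0.0522). Over single libraries left out, the log2 fold change reached -9.23 for MUC5B without PRS regenerated library 3 and -18.63 for ZG16 without PRS regenerated library 4. The latter fit left no read of ZG16 in PRS regenerated tissue, so -18.63 depends on a prior count and does not measure a shift.

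FCGBP and CLCA1, a pair of secreted mucus proteins picked out after their values were seen, behaved otherwise. FCGBP, a large protein of the mucus gel, had 1606, 1.96, 42010 and 27770 CPM in PRS regenerated tissue, against 1919, 4690, 588, 815 and 2298 CPM in ileum grafts. CLCA1, a protease of the mucus layer, had 1601, 6.15, 16780 and 8293 CPM in PRS regenerated tissue, against 1636, 2768, 248, 747 and 2478 CPM in ileum grafts. PRS regenerated libraries 3 and 4 lay above every ileum graft for both genes, library 1 lay within their range and library 2 below it. The groups did not differ past the threshold (log2 fold change 3.11 ± 1.83 SE for FCGBP, 95% interval -0.66 to 6.89, adjusted p = 0.279, and 2.08 ± 1.38 SE for CLCA1, interval -0.75 to 4.91, adjusted p = 0.342). Native bladders of the PRS arm ran from 10.1 to 11580 CPM of FCGBP and from 20.2 to 2054 CPM of CLCA1. How far the share of epithelium in a library bears on these values was not tested.

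**Figure D3:**
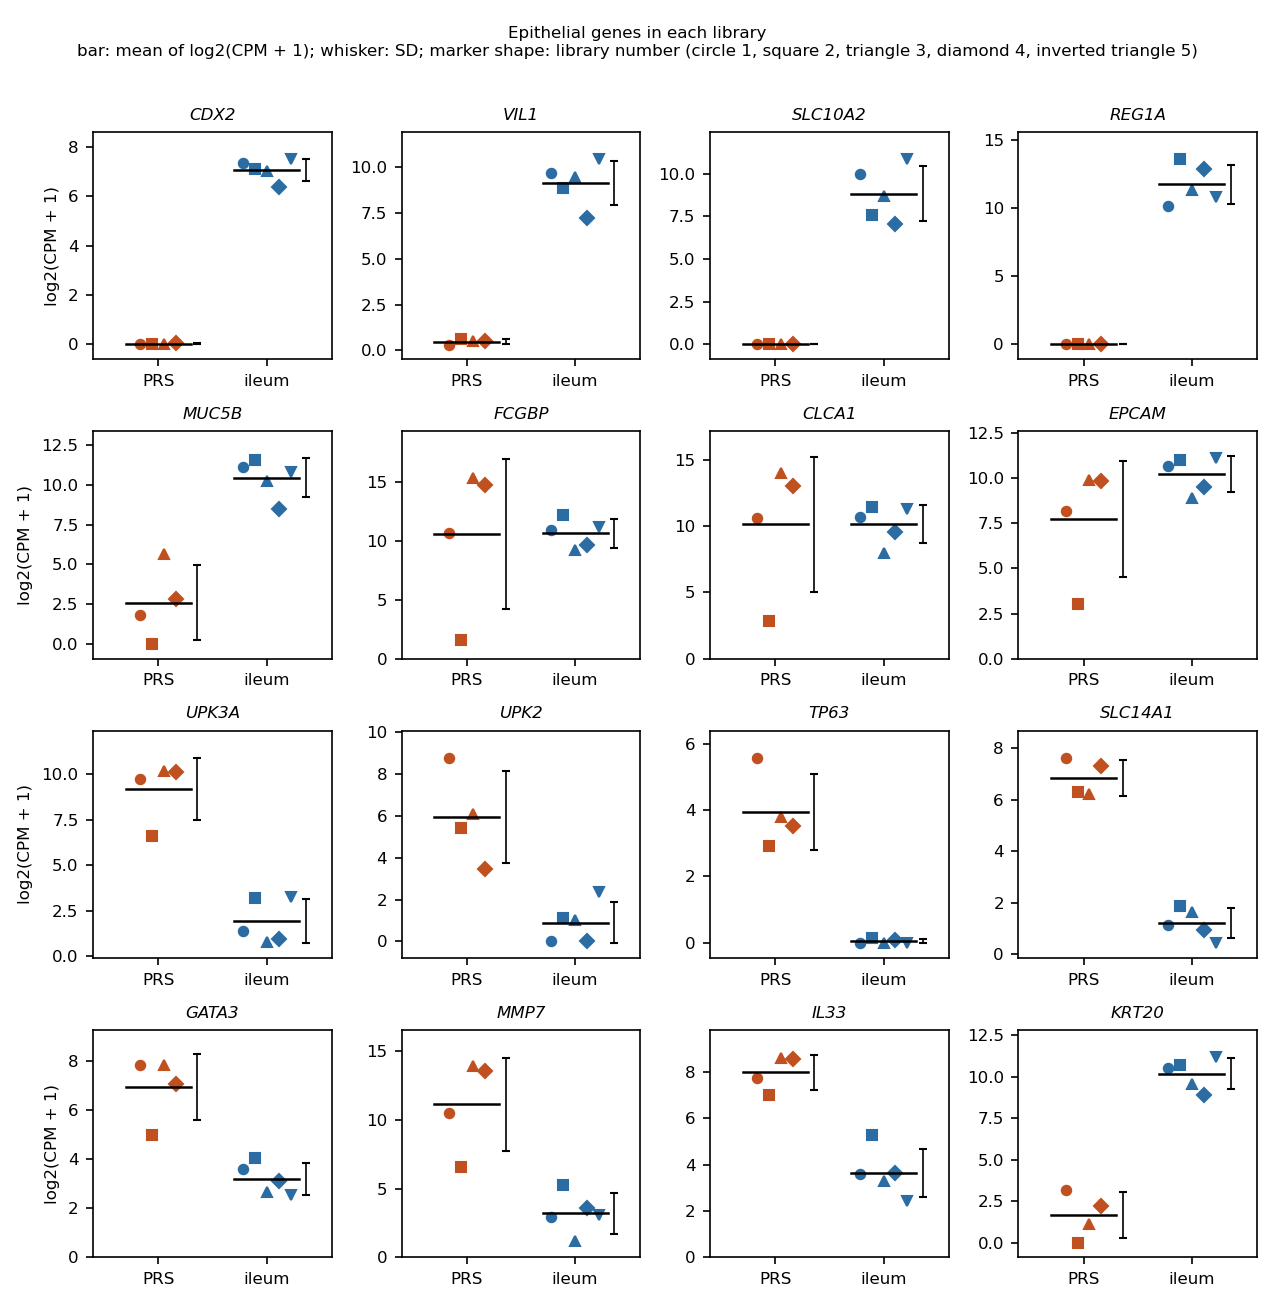
log2(CPM + 1) of 16 epithelial genes in each library, PRS regenerated tissue left and ileum graft right in each panel, with the mean (bar), the SD (whisker) and the library number as marker shape. Intestinal genes such as CDX2 and VIL1 lie near 0 in all 4 PRS regenerated libraries, FCGBP and CLCA1 reach 42010 and 16780 CPM in PRS regenerated library 3, and PRS regenerated library 2 is lowest for EPCAM, UPK3A and MMP7.

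Peptides of Paneth cells and of the REG family were among the largest differences. Of 11 tested, 6 were called lower (54.5%, against 6.71% of all genes) and 1 higher (9.09%, against 7.21%). The median log2 fold change was -3.23. Different fits gave 0 higher with the 9 libraries alone, with the random effect and with the title number as a block, 0 higher and 0 lower with the fixed block, and 0 of 13 higher without a filter on low counts. REG1A, a secreted lectin-like protein that rises in injured gut, had no read in PRS regenerated tissue and 1137, 12800, 2568, 7476 and 1870 CPM in ileum grafts, at least 152200-fold lower (adjusted p = 5.32e-05). REG1B, REG3A and the Paneth cell defensin DEFA6 were also without a read there, with falls of at least 65350-fold, 37100-fold and 15840-fold (adjusted p = 0.000849, 0.00139 and 0.000391). NOS2, the inducible nitric oxide synthase, was at least 11840-fold lower (adjusted p = 5.11e-05). REG and defensin genes have near-identical relatives, so reads may be shared among them. Ileum graft library 5 was lowest for DEFA6 and REG3A, at 26.9 and 30.99 CPM.

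The member called higher was LYZ, lysozyme, with 599, 71.1, 978 and 1131 CPM in PRS regenerated tissue, against 46.8, 141, 20.7, 315 and 66.03 CPM in ileum grafts. For LYZ the log2 fold change was 2.56 ± 0.83 SE (adjusted p = 0.0409). PRS regenerated library 2 lay within the range of the ileum grafts. The call was lost without any one of 7 libraries, PRS regenerated 1, 3 or 4 and ileum graft 1, 2, 3 or 5, with adjusted p up to 0.0968. LCN2, which binds bacterial iron carriers and was picked after its values were seen, had 1121, 0, 4973 and 7383 CPM in PRS regenerated tissue, against 79.9, 844, 107, 272 and 7.19 CPM in ileum grafts. It missed the threshold (log2 fold change 3.69 ± 2.08 SE, 95% interval -0.60 to 7.97, adjusted p = 0.257). LYZ was not called with the animal as a random effect or with the 9 libraries alone.

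Of 14 enteroendocrine genes tested, 4 were called lower (28.6%, against 6.71% of all genes) and 0 higher (median log2 fold change -3.26). Under other fits there were 6 lower with the random effect and in DESeq2, and 0 lower with the fixed block. GCG, whose product includes the gut hormone GLP1, and PYY, peptide YY, had no read in PRS regenerated tissue and were at least 567-fold and 433-fold lower (adjusted p = 0.00162 and 0.00171). MLN (motilin) and SCT (secretin) were counted in PRS regenerated library 1 alone (adjusted p = 0.0106 and 0.0113). All 4 were low in ileum grafts too, with a highest value of 38.8 CPM, for GCG in library 5. SCT was not called with the 9 libraries alone.

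Of 16 tested genes that the epithelia of both organs use, 1 (6.25%) was called lower, near the share over all genes (6.71%). It was the liver-intestine cadherin CDH17 (log2 fold change -5.75 ± 0.99 SE, adjusted p = 0.000279). None was called higher in edgeR, 1 was in DESeq2 or with the 9 libraries alone, and the median log2 fold change was -0.28. EPCAM had 290.5, 7.19, 934 and 910.0 CPM in PRS regenerated tissue, against 1641, 2023, 466, 728 and 2191 CPM in ileum grafts, and the groups overlapped (log2 fold change -1.40 ± 0.96 SE, 95% interval -3.38 to 0.59, adjusted p = 0.365). CDH1, the E-cadherin that joins epithelial cells, had 399.6, 46.7, 617 and 425 CPM in PRS regenerated tissue, against 961, 549, 178, 161 and 408 CPM in ileum grafts (log2 fold change -0.28 ± 0.76 SE, 95% interval -1.83 to 1.28, adjusted p = 0.847). The interval for CDH1 allows a difference of more than 2-fold either way. GRHL2, a transcription factor of epithelial junctions, was not called (log2 fold change 2.07 ± 0.78 SE, adjusted p = 0.0752). It passed without PRS regenerated library 2 (log2 fold change 2.44, adjusted p = 0.0461).

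Umbrella cell genes were higher in PRS regenerated tissue. Of 17 tested, 12 were called higher (70.6%, against 7.21% of all genes) and 2 lower (11.8%, against 6.71%). Over the 17 the median log2 fold change was 5.36. For 10 of the 17, every PRS regenerated library lay above every ileum graft, against 5.47% of all genes. Other fits called 3 higher with the random effect, and 2 higher and 1 lower with the fixed block. UPK3A, a uroplakin, had 854, 97.6, 1144 and 1136 CPM in PRS regenerated tissue, against 1.66, 8.27, 0.73, 0.951 and 8.69 CPM in ileum grafts. For UPK3A the log2 fold change was 7.64 ± 1.17 SE (adjusted p = 7.12e-05). PRS regenerated library 2 was the lowest of its group and still above every ileum graft. The tetraspanin uroplakin UPK1A had 826, 135, 213 and 42.4 CPM in PRS regenerated tissue, against 0, 3.81, 4.92, 0.333 and 6.09 CPM in ileum grafts, and its partner UPK2 had 444, 42.1, 68.2 and 10.1 CPM in PRS regenerated tissue, against 0, 1.15, 1.02, 0 and 4.19 CPM in ileum grafts. Unlike UPK3A, both were lowest in PRS regenerated library 4 and highest in library 1, and both were called (log2 fold change 6.65 ± 1.29 SE and 6.79 ± 1.41 SE, adjusted p = 0.000934 and 0.00168). Without PRS regenerated library 1 the log2 fold change of UPK2 was 4.99, adjusted p = 0.0116. UPK1B, whose protein pairs with that of UPK3A, overlapped, at 129, 39.1, 26.4 and 3.39 CPM in PRS regenerated tissue, against 3.82, 0.853, 0, 0.0475 and 1.3 CPM in ileum grafts. For UPK1B the log2 fold change was 5.36 ± 1.26 SE (adjusted p = 0.00487). UPK3B was called at 3.83 ± 0.88 SE (adjusted p = 0.004). UPK1A, UPK2, UPK1B and UPK3B were not called with the animal as a random effect. Single libraries moved the log2 fold change to as far as 5.44 for UPK1A without PRS regenerated library 1, 6.49 for UPK1B without ileum graft library 1 and 4.48 for UPK3B without ileum graft library 1.

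PSCA, a lipid-anchored surface protein of urothelium, had 5270, 328, 6139 and 6645 CPM in PRS regenerated tissue, against 0, 50.9, 23.8, 3.66 and 16.4 CPM in ileum grafts. For PSCA the log2 fold change was 7.92 ± 1.42 SE (adjusted p = 0.000409). SNX31, a sorting nexin that in mice binds uroplakins, had 70.5, 13.3, 31.9 and 26.9 CPM in PRS regenerated tissue, against 0, 0.301, 0, 0.333 and 0.499 CPM in ileum grafts. For SNX31 the log2 fold change was 7.27 ± 1.13 SE (adjusted p = 9.2e-05). The members called lower were KRT20 and CYP2J2. KRT20, a keratin of umbrella cells and of the intestinal surface, had 8.18, 0, 1.17 and 3.71 CPM in PRS regenerated tissue, against 1488, 1703, 759.7, 479 and 2338 CPM in ileum grafts, and every ileum graft lay above every PRS regenerated library (log2 fold change -8.69 ± 1.38 SE, adjusted p = 0.000118). CYP2J2, a cytochrome P450 that forms epoxides of fatty acids, fell (log2 fold change -5.25 ± 1.01 SE, adjusted p = 0.000847). SNX31 was not called with the animal as a random effect. Dropping 1 library took the log2 fold change as far as 8.71 for PSCA without ileum graft library 2, -9.68 for KRT20 without PRS regenerated library 1 and -4.35 for CYP2J2 without ileum graft library 1.

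Basal and intermediate urothelium genes were called higher for 12 of 19 members (63.2%, against 7.21% of all genes) and lower for 0. The median log2 fold change was 2.42. In other fits the list had 8 higher with the 9 libraries alone, 6 higher with the random effect, and 4 higher with the fixed block. TP63, the transcription factor of basal cells in layered epithelia, had 47.3, 6.55, 12.8 and 10.4 CPM in PRS regenerated tissue, against 0, 0.1, 0, 0.0475 and 0 CPM in ileum grafts. All 4 PRS regenerated libraries were above 6 CPM, and the ileum grafts together held 3 reads. On library totals without TMM scaling the ratio was 840.4, with an exact 95% counting interval of 287 to 4078 (adjusted p = 4.61e-05). The ligands SHH and WNT7B, which basal urothelial cells send to the stroma in mice, had 50.1, 1.48, 27.8 and 26.6 CPM and 78.4, 5.39, 33.4 and 38.1 CPM in PRS regenerated tissue, against 0, 0.301, 0, 0 and 0 CPM and 0, 0.501, 0, 0.0951 and 0 CPM in ileum grafts. Both were called (log2 fold change 8.70 ± 1.23 SE and 8.30 ± 1.16 SE, adjusted p = 3.36e-05 and 2.85e-05), and both were lowest in PRS regenerated library 2. TRIM29, at 7.75 ± 1.03 SE, and the keratins KRT23, at 6.90 ± 1.13 SE, and KRT7, at 4.95 ± 0.91 SE, were also higher (adjusted p = 1.6e-05, 0.00017 and 0.00056). TP63 and KRT23 were not called with the animal as a random effect. Leaving out 1 library moved the log2 fold change furthest to 12.52 for SHH without ileum graft library 2, 10.39 for WNT7B without ileum graft library 2, 8.41 for TRIM29 without ileum graft library 2, 7.79 for KRT23 without ileum graft library 2 and 5.88 for KRT7 without ileum graft library 2. For SHH no read was then left in ileum grafts, so 12.52 depends on a prior count and does not measure a shift.

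Of 19 urothelial transcription factors tested, 9 were called higher (47.4%, against 7.21% of all genes) and 0 lower (median log2 fold change 1.58). Refitted, it had 4 higher with the random effect, and 1 higher with the fixed block. GATA3, a factor of the luminal urothelial programme, had 229, 30.8, 228 and 135 CPM in PRS regenerated tissue, against 11.1, 15.8, 5.36, 7.61 and 4.84 CPM in ileum grafts. For GATA3 the log2 fold change was 4.12 ± 0.80 SE, and the groups did not overlap (adjusted p = 0.000935). FOXA1, which works beside GATA3, was at 3.61 ± 0.82 SE (adjusted p = 0.00371), and PRS regenerated library 2 fell within the range of the ileum grafts. The retinoic acid receptor RARG was at 2.53 ± 0.41 SE and TFAP2C at 6.12 ± 1.00 SE (adjusted p = 0.00014 and 0.00016). PPARG, which drives umbrella cell differentiation, was not called (log2 fold change 0.89 ± 0.66 SE, 95% interval -0.46 to 2.23, adjusted p = 0.401). FOXA1 was not called with the animal as a random effect. The log2 fold change moved furthest, with 1 library left out, to 6.72 for TFAP2C without ileum graft library 5.

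Of 17 tested genes of squamous epithelium and cornified envelope, 9 were called higher (52.9%, against 7.21% of all genes) and 2 lower (11.8%, against 6.71%). The median log2 fold change was 4.69, or 2.63 with the 3 genes that had no read in ileum grafts set to their bounds. The calls in other fits were 6 of 13 higher with the 9 libraries alone, 3 higher with the random effect, and 0 higher and 0 lower with the fixed block. TMPRSS11E, a serine protease of layered epithelia, had 16.7, 3.67, 5.41 and 8.95 CPM in PRS regenerated tissue and no read in ileum grafts, at least 371-fold higher (adjusted p = 7.12e-05). CERS3, which makes the very long ceramides of the skin barrier, was at least 241-fold higher (adjusted p = 0.000221). Desmosomal cadherins moved in both directions. DSG3 and DSC3, of layered epithelia, rose (log2 fold change 6.50 ± 1.28 SE and 6.23 ± 1.19 SE, adjusted p = 0.00102 and 0.000769), and DSC2 fell, with 8.63, 7.59, 5.15 and 3.39 CPM in PRS regenerated tissue, against 215, 130.4, 42.5, 32.3 and 133 CPM in ileum grafts. For DSC2 the log2 fold change was -4.16 ± 0.92 SE (adjusted p = 0.00292). The other member called lower was the transglutaminase TGM3 (log2 fold change -6.86 ± 1.78 SE, adjusted p = 0.0119). DSG3 was not called with the animal as a random effect. With 1 library left out, log2 fold changes moved as far as 4.85 for DSG3 without PRS regenerated library 1, 7.23 for DSC3 without ileum graft library 4 and -11.98 for TGM3 without PRS regenerated library 4.

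Genes that move water, urea, salt and acid split evenly, with 5 called higher and 5 lower of 23 tested. Each share was 21.7%, against 7.21% higher and 6.71% lower over all genes, and the median log2 fold change was -0.69. Different fits gave 3 higher with the random effect, and 1 higher and 3 lower with the fixed block. SLC14A1, the urea transporter of urothelium and red cells, had 194, 76.8, 72.7 and 156 CPM in PRS regenerated tissue, against 1.21, 2.71, 2.14, 0.951 and 0.349 CPM in ileum grafts. Every PRS regenerated library lay above every ileum graft (log2 fold change 6.40 ± 0.66 SE, adjusted p = 5.42e-07). SCNN1B, a subunit of the epithelial sodium channel, was at 3.09 ± 0.82 SE (adjusted p = 0.0122), and the ammonia channel RHCG was at 6.45 ± 1.92 SE (adjusted p = 0.0251). RHCG had 0.173, 0.12, 30.3 and 40 CPM in PRS regenerated tissue, against 0, 0, 0, 0.238 and 0.749 CPM in ileum grafts, so that only PRS regenerated libraries 3 and 4 lay above the ileum grafts. Without PRS regenerated library 4, or without ileum graft library 2 or 3, the call of RHCG was lost (log2 fold change 5.68, 6.14 and 6.13, adjusted p = 0.055, 0.0548 and 0.0504). ATP12A, a proton and potassium pump, was at least 162-fold higher, most of it in PRS regenerated library 1, and KCNJ15, a potassium channel, was at 7.47 ± 1.55 SE (adjusted p = 0.00547 and 0.00169). On the other side stood the gut exchangers SLC26A3, for chloride and bicarbonate, SLC9A3, for sodium and protons, and SLC26A6, at log2 fold changes of -10.37 ± 1.43 SE, -4.61 ± 0.68 SE and -2.28 ± 0.35 SE (adjusted p = 2.42e-05, 5.11e-05 and 8.58e-05). SCNN1B, RHCG and ATP12A were not called with the animal as a random effect. With the 9 libraries alone RHCG did not pass the filter on low counts, and 4 of the 22 genes tested were called higher. Over single libraries left out, the log2 fold change reached 3.84 for SCNN1B without ileum graft library 1, 11.02 for KCNJ15 without ileum graft library 4 and -13.05 for SLC26A3 without PRS regenerated library 1.

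Of 27 genes of drug, steroid and retinoid metabolism, 11 were called lower (40.7%, against 6.71% of all genes) and 2 higher (7.41%, near 7.21%). The median log2 fold change was -1.32. Under other fits there were 1 of 26 higher with the 9 libraries alone, 1 higher with the random effect and with the title number as a block, 1 higher and 4 lower with the fixed block, and 3 higher in DESeq2. ABCB1, the efflux pump P-glycoprotein, had 21.1, 13.1, 15.9 and 22.6 CPM in PRS regenerated tissue, against 982, 440.2, 308, 154 and 1182 CPM in ileum grafts. For ABCB1 the log2 fold change was -5.08 ± 0.55 SE, and the groups did not overlap (adjusted p = 1.17e-06). The pumps ABCG2 and ABCC2 fell too (log2 fold change -3.50 ± 0.53 SE and -6.41 ± 1.10 SE, adjusted p = 6.94e-05 and 0.000262), as did the P450 enzyme CYP4F2 and the sulfotransferase SULT1B1 (log2 fold change -10.70 ± 1.49 SE and -9.65 ± 1.57 SE, adjusted p = 2.78e-05 and 0.000227). The 2 called higher belong to the retinoid pathway. RARB, a retinoic acid receptor, had 13.1, 50.9, 8.13 and 8.24 CPM in PRS regenerated tissue, against 3.87, 0.953, 0.584, 1.95 and 1.25 CPM in ileum grafts. For RARB the log2 fold change was 3.54 ± 0.68 SE (adjusted p = 0.000774). ALDH1A3, which makes retinoic acid, was at 159 and 203 CPM in PRS regenerated libraries 3 and 4 and near the ileum grafts in libraries 1 and 2, and its call (log2 fold change 2.78 ± 0.75 SE, adjusted p = 0.0131) was lost without library 4 (log2 fold change 2.14, adjusted p = 0.0611). ALDH1A3 was not called with the animal as a random effect or with the 9 libraries alone. Single libraries moved the log2 fold change to as far as -2.91 for ABCG2 without ileum graft library 5, -5.75 for ABCC2 without ileum graft library 1, -13.94 for SULT1B1 without PRS regenerated library 4 and 2.53 for RARB without PRS regenerated library 2.

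HOX genes of the last groups, which mark the hind end of the body, lay apart in the groups. Of 10 tested HOX genes of groups 10 to 13, 6 were called higher (60%, against 7.21% of all genes) and 0 lower. The median log2 fold change was 5.00. Other fits called 4 of 6 higher with the 9 libraries alone. HOXA13, which the urogenital sinus and hindgut need, had 57.5, 98.5, 58.2 and 52.6 CPM in PRS regenerated tissue, against 0, 0.451, 0, 0.0475 and 0.2 CPM in ileum grafts. For HOXA13 the log2 fold change was 8.86 ± 0.68 SE (adjusted p = 7.39e-09). The PRS regenerated libraries lay close together, and library 2, poor in epithelium and rich in muscle, was the highest. HOXD13 had 22.4, 29.3, 13.3 and 15.03 CPM and HOXD10 3.67, 9.39, 2.3 and 3.35 CPM in PRS regenerated tissue, and neither had a read in any ileum graft. On library totals without TMM scaling they were at least 833-fold and 191-fold higher (adjusted p = 2.1e-05 and 5.8e-07). HOXA11 and HOXA10 were at 6.47 ± 0.97 SE and 3.53 ± 0.76 SE (adjusted p = 5.65e-05 and 0.00223). In ileum grafts HOXA11 was read in library 2 only, and without that library its log2 fold change was 12.72. That value depends on a prior count and does not measure a shift. HOXB13 differed from the rest of the group in having no read in PRS regenerated library 2, with 17.2, 0, 20.5 and 27.7 CPM in PRS regenerated tissue, against 0, 0.251, 0, 0.0951 and 0.2 CPM in ileum grafts. For HOXB13 the log2 fold change was 7.17 ± 1.83 SE (adjusted p = 0.00928). HOXB13 was not called with the animal as a random effect. With the 9 libraries alone HOXA10 was not called, and HOXB13 did not pass the filter on low counts and was not tested. Dropping 1 library took the log2 fold change as far as 9.98 for HOXA13 without ileum graft library 2.

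EVX1, a homeobox gene at the end of the HOXA cluster, was at least 511-fold higher (adjusted p = 0.000279). Of the rows named as fragments of HOXA11-AS1, 3 of which were among the 12 largest rises, no value is given, because the strand setting of the counting is not given and their reads cannot be told from those of HOXA11. Among the 25 tested HOX genes of groups 1 to 9, 3 were called higher and 2 lower (20% in all, against 13.9% of all genes), with a median log2 fold change of 0.38. In other fits the list had 0 of 24 higher and 3 of 24 lower with the 9 libraries alone, 2 higher and 3 lower with the random effect, 1 higher and 1 lower with the fixed block, 1 higher without a filter on low counts, and 2 higher on the size factors of DESeq2. The count was 3 without ileum graft library 2 or 4 or without PRS regenerated library 1, 3 or 4. HOXD9 rose, with 21.2, 13.4, 27.4 and 21.5 CPM in PRS regenerated tissue, against 0, 0, 7.25, 0.761 and 0.849 CPM in ileum grafts. For HOXD9 the log2 fold change was 3.55 ± 0.89 SE (adjusted p = 0.00835). HOXC8 and HOXC6 fell, HOXC8 with 0.624, 2.36, 3.6 and 2.8 CPM in PRS regenerated tissue, against 17.8, 11.98, 62.2, 41.2 and 53.7 CPM in ileum grafts (log2 fold change -3.99 ± 0.75 SE and -2.67 ± 0.70 SE, adjusted p = 0.000651 and 0.0116). HOXD9 was not called with the 9 libraries alone. Leaving out 1 library moved the log2 fold change furthest to 5.68 for HOXD9 without ileum graft library 3.

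**Figure D4:**
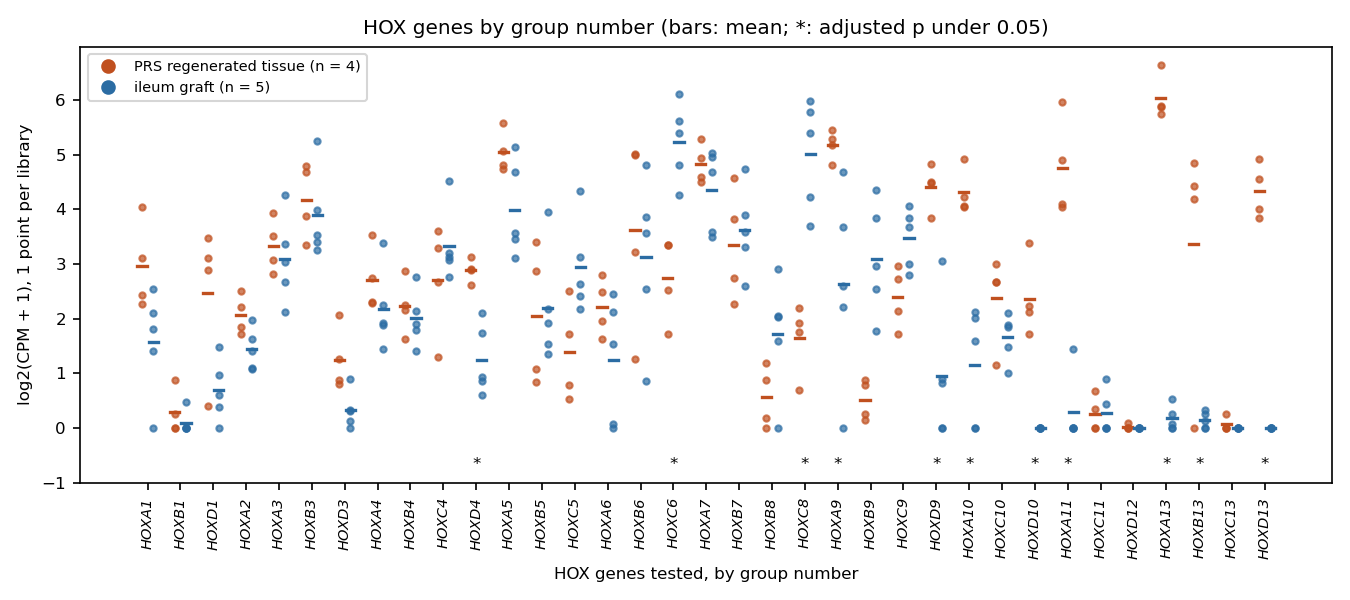
log2(CPM + 1) of the 35 tested HOX genes, ordered by group number, in each library of PRS regenerated tissue (left of each gene) and ileum graft (right), with bars at the means and an asterisk where the adjusted p was under 0.05. From HOXA10 on, 6 genes are higher in PRS regenerated tissue and none is lower, while HOXC6 and HOXC8 are lower in PRS regenerated tissue.

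Of 29 transcription factors of regional mesenchyme, 14 were called higher (48.3%, against 7.21% of all genes) and 2 lower (6.9%, near 6.71%). The list had a median log2 fold change of 1.70. Refitted, it had 4 of 27 higher with the 9 libraries alone, 9 higher with the random effect, and 1 higher and 1 lower with the fixed block. PITX1, known from the hindlimb, had 135, 339.5, 19.3 and 43.2 CPM in PRS regenerated tissue, against 3.32, 3.96, 0.876, 11.2 and 9.93 CPM in ileum grafts. For PITX1 the log2 fold change was 4.52 ± 0.73 SE, and the groups did not overlap (adjusted p = 0.000146). TBX5 had 6.2, 38.99, 1.13 and 0.828 CPM, TBX4 17.7, 72.8, 0 and 0 CPM and TBX20 1.35, 19.7, 0 and 0.828 CPM in PRS regenerated tissue, T-box factors best known from limbs and heart, and none had a read in an ileum graft. All 3 were highest in PRS regenerated library 2 and next in library 1, the libraries richest in muscle, and TBX4 was at 0 in libraries 3 and 4, the poorest. The rises were at least 464-fold, 895-fold and 212-fold (adjusted p = 0.000925, 0.00408 and 0.00203). The part of muscle content in their levels was not tested. NR2F2, a nuclear receptor of mesenchyme and veins, rose too, highest in library 3, with 64.05, 124, 169 and 147 CPM in PRS regenerated tissue, against 67.04, 35.9, 60.8, 31.4 and 41.5 CPM in ileum grafts. For NR2F2 the log2 fold change was 1.42 ± 0.28 SE (adjusted p = 0.000935). NKX2-3, a factor of gut mesenchyme in mice, was called lower, with 0, 0, 0.648 and 1.34 CPM in PRS regenerated tissue, against 20.5, 12.2, 47.7, 27.2 and 27.1 CPM in ileum grafts. For NKX2-3 the log2 fold change was -5.75 ± 1.54 SE, and the groups did not overlap (adjusted p = 0.013). TBX4 and TBX20 were not called with the animal as a random effect, and with the 9 libraries alone they did not pass the filter on low counts. The log2 fold change moved furthest, with 1 library left out, to 3.50 for PITX1 without PRS regenerated library 2 and -6.89 for NKX2-3 without PRS regenerated library 4.

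The contractile genes of smooth muscle gave no call among 18 tested in edgeR (0%, against 13.9% of all genes). Their median log2 fold change was 0.15, with 1 at an unadjusted p under 0.05 and 1 called by DESeq2. DES had 9165, 31030, 1681 and 1524 CPM in PRS regenerated tissue, against 4267, 1044, 40240, 17960 and 14690 CPM in ileum grafts (log2 fold change -0.53 ± 1.04 SE, 95% interval -2.68 to 1.62, adjusted p = 0.783). ACTG2, the gamma actin of visceral muscle, had 4127, 18570, 479 and 433 CPM in PRS regenerated tissue, against 2044, 386, 27700, 10180 and 9307 CPM in ileum grafts (log2 fold change -0.75 ± 1.15 SE, 95% interval -3.11 to 1.61, adjusted p = 0.712). Both genes were highest in ileum graft library 3 and PRS regenerated library 2, lowest in ileum graft library 2 and PRS regenerated libraries 3 and 4, and the groups overlapped. ACTA2 was closest to a call (log2 fold change 2.18 ± 0.85 SE, adjusted p = 0.0874).

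Of 29 receptors and channels that govern contraction, 5 (17.2%, against 7.21% of all genes) were called higher and 0 lower (median log2 fold change 0.53). The calls in other fits were 1 of 27 higher with the 9 libraries alone, 1 higher and 1 lower with the random effect, 0 higher with the fixed block, and 3 higher without a filter on low counts, with the code letter as a term and with the title number as a block. The count was 2 or 3 without any one of PRS regenerated libraries 1 and 2 or any one ileum graft. TRPV4, a channel that urothelium uses to sense stretch, had 51.3, 2.24, 53.8 and 32.1 CPM in PRS regenerated tissue, against 0.0503, 0.451, 3.94, 1.43 and 2 CPM in ileum grafts. For TRPV4 the log2 fold change was 4.46 ± 0.94 SE (adjusted p = 0.0019). PRS regenerated library 2 lay within the range of the ileum grafts. P2RX1, the ATP-gated channel of the detrusor, was highest in the PRS regenerated libraries richest in muscle, with 222, 1229, 18.1 and 7.46 CPM in PRS regenerated tissue, against 17.4, 29.9, 40.9, 14.1 and 31.5 CPM in ileum grafts, so that the groups overlapped. Its call (log2 fold change 3.79 ± 1.26 SE, adjusted p = 0.0459) was lost without PRS regenerated library 2 (log2 fold change 1.64, adjusted p = 0.431), and without PRS regenerated library 1 or any one ileum graft (adjusted p = 0.0612 to 0.0885). The part of muscle content in it was not tested. CACNA1C, the calcium channel of muscle, was called (log2 fold change 2.30 ± 0.76 SE, adjusted p = 0.0445), but not without PRS regenerated library 2 (log2 fold change 1.08, adjusted p = 0.402) or any one of ileum grafts 1, 2, 4 and 5. TRPV4, P2RX1 and CACNA1C were not called with the animal as a random effect, and P2RX1 and CACNA1C were not called with the 9 libraries alone. With 1 library left out, log2 fold changes moved as far as 5.14 for TRPV4 without ileum graft library 3.

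**Figure D5:**
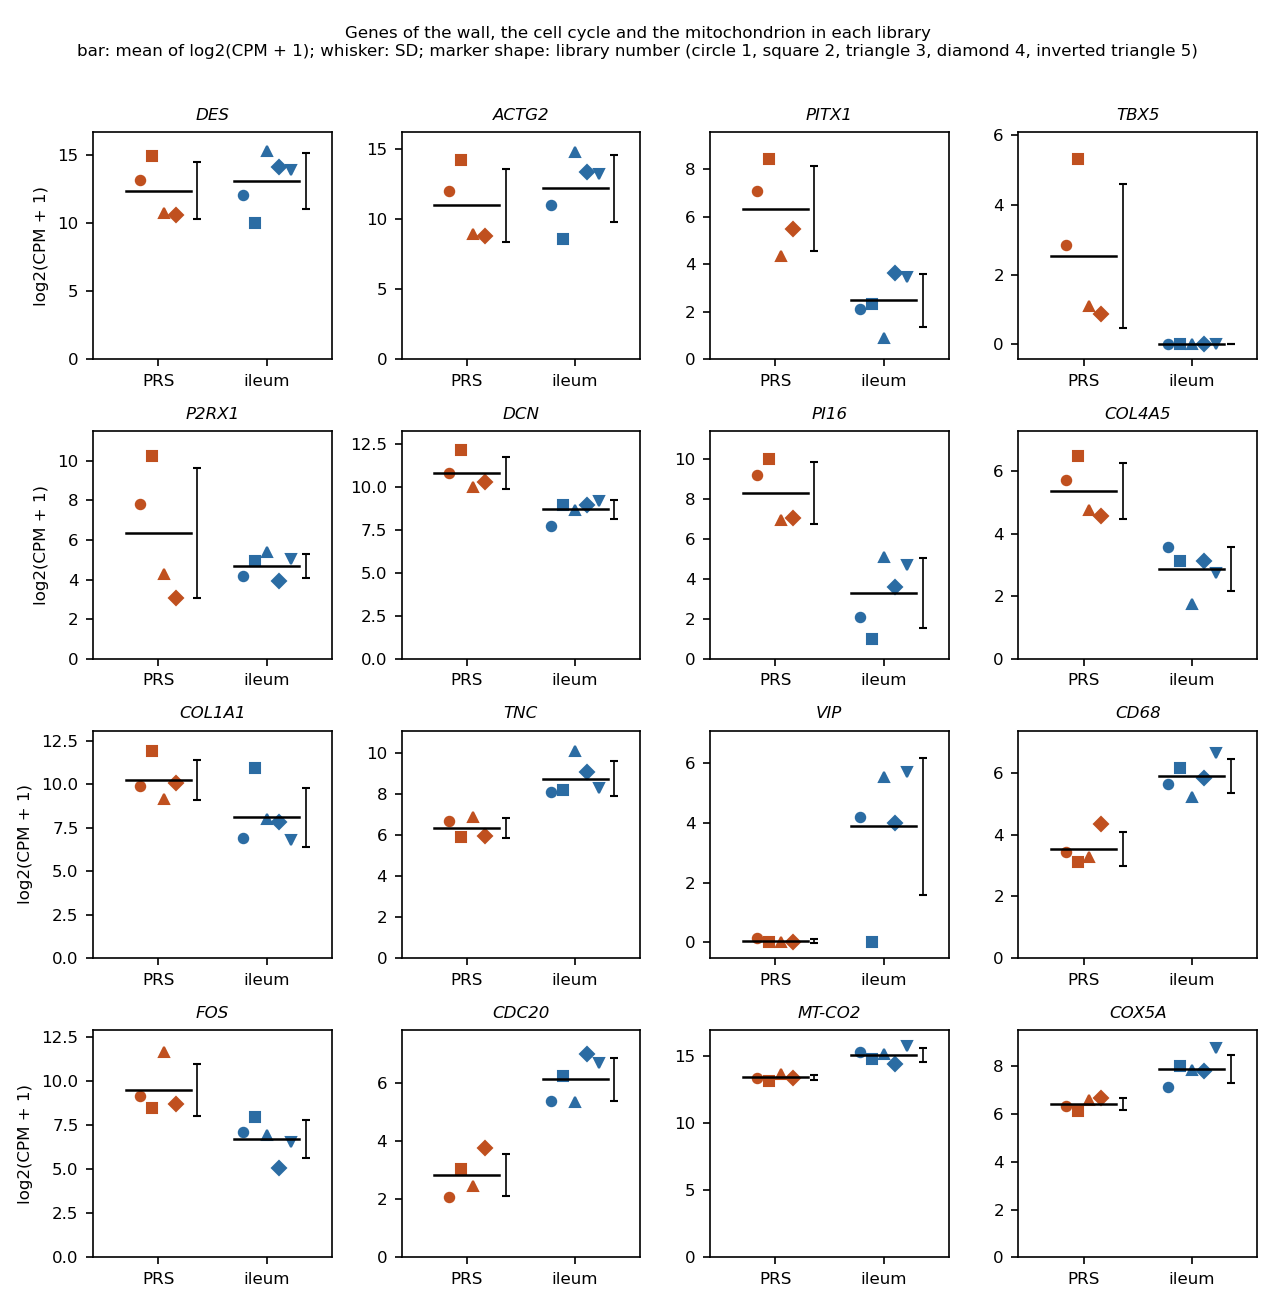
log2(CPM + 1) of 16 genes of muscle, position, stroma, nerve, immune cells, cell division and the mitochondrion in each library, PRS regenerated tissue left and ileum graft right in each panel, with the mean (bar), the SD (whisker) and the library number as marker shape. DES overlaps between the groups, DCN, PI16 and COL4A5 lie higher in all PRS regenerated libraries, and TNC, CD68, CDC20, MT-CO2 and COX5A lie higher in all ileum grafts.

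Of 17 neuronal and neuropeptide genes tested, 2 were called lower (11.8%, against 6.71% of all genes) and 0 higher, VIP and GAL (median log2 fold change -1.54). Different fits gave 1 of 14 lower with the 9 libraries alone, 0 lower with the fixed block, 5 lower in DESeq2, and 1 lower with the title number as a block. VIP, a relaxing peptide of enteric neurons, had 0.104, 0, 0 and 0 CPM in PRS regenerated tissue, against 17.4, 0, 45.2, 15.1 and 51.5 CPM in ileum grafts, a ratio of 759.8 with an exact 95% counting interval of 259.7 to 3687 (adjusted p = 0.00456). Ileum graft library 2, low in muscle, also had none. GAL, galanin, was at -5.80 ± 1.82 SE (adjusted p = 0.0338), and lost its call without ileum graft library 3 or 5 or PRS regenerated library 1, 3 or 4 (adjusted p up to 0.1). Of 14 glial genes, PMP2 alone was called (7.14%, near the 7.21% of all genes), in edgeR at least 76.3-fold higher and mostly in PRS regenerated library 2 (adjusted p = 0.0249), and the call was lost without that library or ileum graft library 5 (2 genes were called without ileum graft library 3). Of 12 genes of interstitial and mast cells, CPA3 and FCER1A, both of mast cells, were called higher (16.7% of the list, against 7.21% of all genes), at 2.41 ± 0.68 SE and 2.03 ± 0.59 SE (adjusted p = 0.0186 and 0.0223). Neither call held without PRS regenerated library 3 (log2 fold change 2.04, adjusted p = 0.0646 for CPA3, log2 fold change 1.72, adjusted p = 0.0756 for FCER1A), and that of CPA3 was also lost without library 1. Under other fits there were 1 higher with the 9 libraries alone and with the title number as a block, 3 higher with the random effect, 0 higher with the fixed block, and 4 higher in DESeq2. GAL and FCER1A were not called with the 9 libraries alone. The glial list, and so PMP2, had no call in several fits. It had 0 of 13 called with the 9 libraries alone and 0 of 12 with a minimum count of 50 in the filter. With the random effect, the fixed block and the title number as a block it had 0 of 14.

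The fibrillar collagens and markers of fibroblast activation gave 1 higher and 1 lower call among 29 (6.9% in all, against 13.9% of all genes, with a median log2 fold change of 1.09). Other fits called 3 higher with the random effect, 0 higher and 0 lower with the fixed block, 5 higher in DESeq2, and 0 lower with the title number as a block. COL1A1 had 950.1, 3860, 574 and 1090 CPM in PRS regenerated tissue, against 120.4, 1976, 256, 227 and 111 CPM in ileum grafts (log2 fold change 1.59 ± 0.82 SE, 95% interval -0.09 to 3.27, adjusted p = 0.207). Ileum graft library 2 stood above the other ileum grafts for COL1A1, and without it 8 members of the list were called. None was called in edgeR without PRS regenerated library 2, and 1 without any one of PRS regenerated libraries 1, 3 and 4. COL14A1, which binds collagen fibrils, rose (log2 fold change 3.17 ± 0.75 SE, adjusted p = 0.00494), a call lost without PRS regenerated library 2 (log2 fold change 1.86, adjusted p = 0.0783). TNC, the matrix protein tenascin C of injured and growing tissue, had 104, 59.96, 116 and 62.1 CPM in PRS regenerated tissue, against 273, 298, 1124, 544 and 312 CPM in ileum grafts. For TNC the log2 fold change was -2.57 ± 0.81 SE, and the groups did not overlap (adjusted p = 0.0353). Its call was lost without any one PRS regenerated library or without ileum graft library 3, with adjusted p up to 0.0994.

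Elastic fibre and basement membrane genes were called higher for 10 of 28 (35.7%, against 7.21% of all genes) and lower for 0. The median log2 fold change was 1.21. In other fits the list had 6 higher with the 9 libraries alone, with the random effect and with the title number as a block, and 1 higher with the fixed block. COL4A5, a chain of the collagen IV network that surrounds bladder smooth muscle, had 51.5, 88.7, 26.1 and 22.6 CPM in PRS regenerated tissue, against 11.01, 7.82, 2.34, 7.7 and 5.69 CPM in ileum grafts. For COL4A5 the log2 fold change was 2.77 ± 0.47 SE, and the groups did not overlap (adjusted p = 0.00023). Its partner chain COL4A6 was at 3.19 ± 0.75 SE (adjusted p = 0.00511). FBLN1 and FBLN2, fibulins of elastic fibres, did not overlap either (log2 fold change 1.99 ± 0.45 SE and 2.43 ± 0.59 SE, adjusted p = 0.00362 and 0.00617). MFAP5, a microfibril protein, had 125, 513, 33.9 and 44.9 CPM in PRS regenerated tissue, against 15.4, 5.42, 13.5, 21.4 and 14.4 CPM in ileum grafts. For MFAP5 the log2 fold change was 3.68 ± 0.94 SE (adjusted p = 0.00949). Without PRS regenerated library 2, 6 of the members were called, and MFAP5 was not (log2 fold change 2.29, adjusted p = 0.0997). COL4A6 and MFAP5 were not called with the animal as a random effect, and COL4A6 was not called with the 9 libraries alone. Over single libraries left out, the log2 fold change reached 2.29 for COL4A6 without PRS regenerated library 2.

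Small proteoglycans and stromal genes were called higher for 9 of 28 (32.1%, against 7.21% of all genes) and lower for 0. For 8 members every PRS regenerated library lay above every ileum graft, against 5.47% of all genes. The list had a median log2 fold change of 1.14. Refitted, it had 1 higher with the fixed block. DCN, the collagen-binding decorin, had 1775, 4419, 1025 and 1257 CPM in PRS regenerated tissue, against 208, 496, 391, 496 and 564 CPM in ileum grafts. For DCN the log2 fold change was 2.30 ± 0.55 SE (adjusted p = 0.00568). PI16, which marks fibroblasts of the adventitia, had 594, 1043, 123 and 131 CPM in PRS regenerated tissue, against 3.27, 0.953, 33.8, 10.98 and 24.7 CPM in ileum grafts. For PI16 the log2 fold change was 5.00 ± 1.057 SE (adjusted p = 0.002). The lowest PRS regenerated library, at 123 CPM, exceeded the highest ileum graft, at 33.8 CPM. PODN, a leucine-rich proteoglycan, was at 2.65 ± 0.54 SE and the leptin receptor LEPR at 3.65 ± 0.65 SE (adjusted p = 0.00139 and 0.000375). CD34, carried by stromal fibroblasts, endothelium and blood progenitors, had 65.99, 247, 85.5 and 78.1 CPM in PRS regenerated tissue, against 39.2, 31.2, 35.7, 21.8 and 24.8 CPM in ileum grafts. For CD34 the log2 fold change was 1.96 ± 0.48 SE (adjusted p = 0.0071). Without PRS regenerated library 2 the count was 4 and CD34 was not called (log2 fold change 1.35, adjusted p = 0.0659). PDGFRA, a general fibroblast marker, overlapped (log2 fold change 0.70 ± 0.48 SE, 95% interval -0.28 to 1.69, adjusted p = 0.356). Single libraries moved the log2 fold change to as far as 1.66 for DCN without PRS regenerated library 2, 4.27 for PI16 without PRS regenerated library 2 and 2.90 for LEPR without PRS regenerated library 2.

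Of 22 matrix proteases and inhibitors, 4 (18.2%, against 7.21% of all genes) were called higher and 0 lower (median log2 fold change 0.48). The calls in other fits were 2 higher with the random effect, and 1 higher with the fixed block. MMP7, a protease made by glandular and surface epithelium, had 1451, 93.3, 15130 and 11770 CPM in PRS regenerated tissue, against 6.49, 38.2, 1.27, 11.2 and 7.39 CPM in ileum grafts. PRS regenerated libraries 3 and 4 had the most, library 2 the least, and every one lay above every ileum graft (log2 fold change 9.11 ± 1.39 SE, adjusted p = 7.22e-05). ADAMTS1, which cuts proteoglycans, was at 2.39 ± 0.54 SE (adjusted p = 0.00374). Endothelial genes gave 2 higher calls among 24 (8.33%, near the 7.21% of all genes), ESAM at 1.15 ± 0.36 SE and EMCN at 1.23 ± 0.40 SE (adjusted p = 0.0307 and 0.041), and the count was 0 or 1 without any one of the 9 libraries. Different fits gave 0 higher with the 9 libraries alone and with the fixed block, and 1 higher with the random effect, without a filter on low counts, on the size factors of DESeq2 and with the title number as a block. PECAM1 was not called (log2 fold change 0.69 ± 0.41 SE, 95% interval -0.15 to 1.53, adjusted p = 0.279). In the adipocyte and mesothelial list, 4 of 15 (26.7%, against 7.21% of all genes) were called higher, among them MSLN, mesothelin, with 44.1, 0.799, 174 and 106 CPM in PRS regenerated tissue, against 5.43, 0.251, 0, 0.665 and 0.0998 CPM in ileum grafts. For MSLN the log2 fold change was 5.98 ± 1.97 SE (adjusted p = 0.0429). Its call was lost without any one of 7 libraries (adjusted p up to 0.0971), and held without PRS regenerated library 2 or ileum graft library 1. The list had 2 members called without PRS regenerated library 3 or without ileum graft library 2 or 4. Under other fits there were 2 higher with the random effect, and 1 higher with the fixed block. EMCN and MSLN were not called with the animal as a random effect, and ESAM, EMCN and MSLN were not called with the 9 libraries alone. Dropping 1 library took the log2 fold change as far as 10.07 for MMP7 without ileum graft library 2.

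Among immune cells, the lymphoid lists gave no call with all libraries in edgeR (0%, against 13.9% of all genes) or DESeq2. T and natural killer cell genes had 0 of 19 called and 0 at an unadjusted p under 0.05 (median log2 fold change -0.73). B and plasma cell genes had 0 of 21 called, 5 at an unadjusted p under 0.05 and a median of -1.88, and XBP1, a transcription factor of plasma cells that secretory epithelia also make, was the member called without PRS regenerated library 1 or 2, as higher. IGJ, the joining chain of secreted antibodies (JCHAIN), had 49.2, 30.8, 121 and 658 CPM in PRS regenerated tissue, against 2670, 1608, 101, 3667 and 466 CPM in ileum grafts, and the groups overlapped (log2 fold change -2.99 ± 1.37 SE, 95% interval -5.81 to -0.16, adjusted p = 0.153). CD79A, of B cells, was at -2.06 ± 1.19 SE (adjusted p = 0.27). Of 20 genes of macrophages and dendritic cells, CD68, a lysosomal protein that other cells make as well, was the 1 called lower (5% of the list, against 6.71% of all genes), with 9.98, 7.59, 8.72 and 19.2 CPM in PRS regenerated tissue, against 49.7, 70.9, 36.2, 56.4 and 100.4 CPM in ileum grafts. For CD68 the log2 fold change was -2.46 ± 0.49 SE, and the groups did not overlap (adjusted p = 0.00114). In that list 2 were called without PRS regenerated library 2 or 4 or ileum graft library 3, and 3 without ileum graft library 1. Other fits called 2 lower with the random effect, and 3 lower in DESeq2.

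Of 17 genes of neutrophils and acute inflammation, 2 were called higher and 1 lower (17.6% in all, against 13.9% of all genes), and 5 in all without ileum graft library 2. In other fits the list had 0 lower with the fixed block, 4 higher in DESeq2, and 3 higher with the code letter as a term. IL33, an alarmin stored in the nuclei of epithelial and stromal cells, had 212, 126.2, 389 and 375 CPM in PRS regenerated tissue, against 10.9, 37.9, 8.86, 11.4 and 4.44 CPM in ileum grafts. The lowest PRS regenerated library, at 126.2 CPM, was above the highest ileum graft, at 37.9 CPM (log2 fold change 4.23 ± 0.55 SE, adjusted p = 1.14e-05). PTGES, the enzyme that makes prostaglandin E2, had 38.9, 15.9, 151 and 88.6 CPM in PRS regenerated tissue, against 1.01, 12.2, 7.01, 3.9 and 6.19 CPM in ileum grafts. For PTGES the log2 fold change was 3.60 ± 0.58 SE, and the groups did not overlap (adjusted p = 0.000148). IL18, a cytokine of gut epithelium, fell, with 3.33, 2.08, 3.82 and 5.64 CPM in PRS regenerated tissue, against 30.8, 31.4, 8.57, 13.7 and 57.1 CPM in ileum grafts. For IL18 the log2 fold change was -2.93 ± 0.76 SE (adjusted p = 0.0103). Interferon-response genes were called higher for 3 of 20 and lower for 1 (20% in all, against 13.9% of all genes), and the count in all was 1 without PRS regenerated library 3 or ileum graft library 4 and 2 without PRS regenerated library 4 or ileum graft library 2 or 5. Refitted, it had 2 higher and 0 lower with the 9 libraries alone, with the code letter as a term and with the title number as a block, 1 higher and 0 lower with the random effect, 0 higher and 0 lower with the fixed block, 5 higher in DESeq2, 0 lower without a filter on low counts, and 2 higher on the size factors of DESeq2. IFI44L had 25.4, 40.1, 13.8 and 17.4 CPM in PRS regenerated tissue, against 5.08, 6.32, 5.31, 4.66 and 6.04 CPM in ileum grafts. For IFI44L the log2 fold change was 2.14 ± 0.42 SE (adjusted p = 0.00101). IFI6, OAS1 and the chemokine CXCL9 (log2 fold change 2.57 ± 0.78 SE, 1.52 ± 0.49 SE and -3.42 ± 1.16 SE, adjusted p = 0.0288, 0.04 and 0.049) each lost their call without any one of 5 libraries, with adjusted p up to 0.0793, 0.13 and 0.132. For IFI6 these were PRS regenerated 3 and 4 and ileum grafts 3 to 5, for OAS1 PRS regenerated 3 and 4 and ileum grafts 2, 4 and 5, and for CXCL9 PRS regenerated 1 to 3 and ileum grafts 2 and 4. Of 18 haematopoietic stem and progenitor genes, a cell type seeded with the graft, 3 (16.7%) were called, 2 higher and 1 lower, near the 13.9% of all genes. The calls in other fits were 0 lower with the 9 libraries alone, with the random effect, without a filter on low counts, with the code letter as a term and with the title number as a block, 0 higher and 0 lower with the fixed block, and 3 higher in DESeq2. GATA2, also a factor of endothelium, mast cells and urothelium, had 172, 18.1, 129.7 and 96.99 CPM in PRS regenerated tissue, against 3.02, 12.4, 22, 6.56 and 10.2 CPM in ileum grafts (log2 fold change 3.26 ± 0.67 SE, adjusted p = 0.00162), and native bladders of the PRS arm had a median of 175 CPM. IFI6, OAS1 and CXCL9 were not called with the animal as a random effect, and OAS1 and CXCL9 were not called with the 9 libraries alone. Leaving out 1 library moved the log2 fold change furthest to 4.95 for IL33 without ileum graft library 2 and 2.98 for PTGES without PRS regenerated library 3.

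Immediate early genes, which cells switch on soon after a stimulus, were called higher for 6 of 20 (30%, against 7.21% of all genes) and lower for 0. The median log2 fold change was 1.65. Different fits gave 4 higher with the random effect, 0 higher with the fixed block, and 9 higher in DESeq2. FOSB had 1071, 63.1, 995 and 33.7 CPM in PRS regenerated tissue, against 13.98, 20.9, 6.13, 1.47 and 8.48 CPM in ileum grafts. For FOSB the log2 fold change was 5.73 ± 1.27 SE (adjusted p = 0.00299). PRS regenerated libraries 1 and 3 were far above libraries 2 and 4, which were in turn above every ileum graft. FOS and EGR1 were highest in PRS regenerated library 3, and their calls were lost without it (log2 fold change 3.17 ± 0.80 SE and 2.51 ± 0.65 SE, adjusted p = 0.00858 and 0.00979 with it, and 1.83 and 1.87, adjusted p = 0.108 and 0.0625, without it). KLF2 was more even, with 210.2, 171, 216 and 129 CPM in PRS regenerated tissue, against 38.5, 56.2, 78.2, 45.6 and 37.1 CPM in ileum grafts. For KLF2 the log2 fold change was 1.83 ± 0.41 SE (adjusted p = 0.00317). In native bladders of the PRS arm the medians were 22.5 CPM of FOSB and 128 CPM of FOS.

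Genes of cell division were called lower in PRS regenerated tissue for 12 of 22 members (54.5%, against 6.71% of all genes) and higher for 0. The median log2 fold change was -2.70, and 20 had an unadjusted p under 0.05. Under other fits there were 2 lower with the fixed block, and 20 lower in DESeq2. CDC20, which starts the exit from mitosis, had 3.26, 7.19, 4.5 and 12.5 CPM in PRS regenerated tissue, against 40.2, 73.9, 39.4, 125 and 100.3 CPM in ileum grafts. For CDC20 the log2 fold change was -3.46 ± 0.76 SE, and the groups did not overlap (adjusted p = 0.00293). CCNB1, cyclin B1, was at -3.38 ± 0.83 SE (adjusted p = 0.00664), and the replication helicase subunit MCM7 had 28.5, 27.7, 61.4 and 36.9 CPM in PRS regenerated tissue, against 43.9, 95.8, 131, 200.1 and 169 CPM in ileum grafts. For MCM7 the log2 fold change was -1.73 ± 0.40 SE (adjusted p = 0.00401). The helicase subunits MCM2 and MCM5 were at -1.85 ± 0.50 SE and -2.42 ± 0.66 SE (adjusted p = 0.0135 and 0.0145), and both lost their call without PRS regenerated library 1 or 2, MCM2 also without ileum graft library 4 (log2 fold change -1.74, adjusted p = 0.0531 for MCM2 and log2 fold change -2.15, adjusted p = 0.0615 for MCM5 without library 1). The number of members called was 3 without PRS regenerated library 1 or 2, 6 without ileum graft library 4 and 7 without ileum graft library 5. AXIN2, a target of the WNT signal of crypt stem cells, was not called (log2 fold change -0.85 ± 0.32 SE, adjusted p = 0.0755). In the crypt stem and progenitor list 2 of 16 (12.5%, against 13.9% of all genes) were called, both higher, among them the WNT receptor ligase ZNRF3 at 1.57 ± 0.37 SE (adjusted p = 0.00487), and 1 without any one of PRS regenerated libraries 1, 3 and 4 or ileum grafts 2 and 5. Other fits called 0 of 15 higher with the 9 libraries alone, 0 higher with the fixed block, 1 lower in DESeq2, and 1 higher with the title number as a block. ZNRF3 was not called with the 9 libraries alone.

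Mitochondrial transcripts took a smaller share of the counts in PRS regenerated tissue. The 13 genes of mitochondrial DNA made up 10.4%, 8.89%, 10.4% and 9.21% of counts in PRS regenerated tissue, against 33.9%, 16.4%, 16.3%, 13.97% and 18.5% in ileum grafts. The means were 9.73% ± 0.80 (SD, n = 4) and 19.8% ± 8.03 (SD, n = 5), and the groups did not overlap. The difference was -10.1 percentage points (two-sided exact permutation test, p = 0.0159, the smallest that splits of 4 against 5 libraries allow), and -6.56 points without ileum graft library 1. Of the 13 genes, 7 were called lower (53.8%, against 6.71% of all genes) and 0 higher (median log2 fold change -1.15). In other fits the list had 1 lower with the 9 libraries alone and with the fixed block. ND3, a subunit of complex I, had 942, 1138, 1282 and 979 CPM in PRS regenerated tissue, against 5449, 2422, 4827, 2544 and 6515 CPM in ileum grafts. For ND3 the log2 fold change was -2.003 ± 0.28 SE (adjusted p = 2.94e-05). MT-CO2, of complex IV, was at -1.74 ± 0.32 SE and COX3, of the same complex, at -1.63 ± 0.31 SE (adjusted p = 0.000599 and 0.000723). Nuclear genes of the respiratory chain were called lower for 8 of 15 (53.3%, against 6.71% of all genes) and higher for 0. The list had a median log2 fold change of -0.85. Refitted, it had 3 lower with the 9 libraries alone, 1 lower with the fixed block, and 12 lower in DESeq2. COX5A, of complex IV, had 79.8, 68.2, 95.8 and 100.1 CPM in PRS regenerated tissue, against 138, 256, 228, 221 and 433 CPM in ileum grafts (log2 fold change -1.57 ± 0.23 SE, adjusted p = 4.5e-05), and UQCRC1 and NDUFV1 were at -1.48 ± 0.26 SE and -1.53 ± 0.27 SE (adjusted p = 0.000298 and 0.000412). MT-CO2 and COX3 were not called with the 9 libraries alone.

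Native bladders also expressed the urothelial and HOX genes that were higher in PRS regenerated tissue. UPK3A had a median of 832 CPM in native bladders of the PRS arm and 878 CPM in those of the Entero arm, TP63 66.1 and 34.3 CPM, and HOXA13 64.5 and 97.2 CPM. In native bladders of the PRS arm REG1A and VIL1 both had a median of 0, and the mean of log2(CPM + 1) over the absorptive list was 0.79 to 1.25, while the goblet list was at 2.27 to 4.77 and the Paneth list at 2.85 to 4.96. Native bladders of the Entero arm, which lay beside an ileum graft, had medians of 1.86 CPM of REG1A and 0.436 CPM of VIL1.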

How the data were processed

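Poly-A RNA from pieces of tissue was sequenced as directional (dUTP), paired-end Illumina libraries, per the labels' protocols. The deposited table holds unnormalised read counts per gene made by the authors. The submitters' processing notes list featureCounts 1.5.0-p3, HISAT2 2.0.5 and StringTie 1.3.3b. Genome build and strand setting are not given, so reads of overlapping, antisense or near-identical genes cannot be told apart.

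The test was the robust quasi-likelihood test of edgeR 4.0.16 under R 4.3.3. Of 27533 genes, 17177 passed filterByExpr with a minimum count of 10. All 28 libraries entered 1 model with the groups as terms, on TMM-scaled library sizes, and the Benjamini-Hochberg adjustment ran over all tested genes, with calls at an adjusted p under 0.05. The standard error (SE) was taken back from the F value, so it is approximate for genes with few reads, and 95% intervals rest on it. Fitted fold changes of genes with no read in a group depend on a prior count and are no bound. The same holds where the library left out held the only reads of a group. Bounds put 3 counts over the group in place of 0 (0.0273 CPM in PRS regenerated tissue, 0.0237 CPM in ileum grafts). Bounds and ratios of reads use library totals without TMM scaling. TMM factors were 0.8786 to 1.113 in PRS regenerated tissue and 0.6776 to 1.003 in ileum grafts. Bounds on rises would therefore be lower on the TMM scale of the CPM. Bounds and ratios of reads cover counting error only. List means use log2(CPM + 1).

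The comparison, the 37 gene lists and the named genes were chosen with earlier results of these data known. Genes were named by 3 rules: the largest non-overlapping changes among called genes with a symbol, up to 5 members of each list with the smallest p, and cell type markers. Named outside them, after their values were seen, were CDX1, ANPEP, EPS8L3, SLC5A1, FCGBP, CLCA1, LYZ, LCN2, CYP2J2, KRT7, UPK1B, TGM3, SCNN1B, RHCG, ALDH1A3, RARB, HOXB13, TBX4, NKX2-3 and the genes of the observations. List members without a row of that symbol, such as MUC2, KRT5, MYH11 and CHRM3, are not analysed here.

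The animals of the 2 groups differ, so the numbers in the titles pair nothing between them. Deviations of same-numbered libraries correlated at r = -0.025, -0.384, -0.101 and 0.091, values that alone could not show or exclude pairing. No pair of libraries within PRS regenerated tissue or within ileum grafts was a duplicate by a chi-square test of counts. Pairs across the groups and the other libraries of the model were not checked. Nothing in the labels shows separate operations within an animal, and the SDs measure the spread between animals, each sampled once. On simulated counts for this comparison (16798 genes, 200 changed), edgeR recovered 3.0% of genes changed 2-fold, 44.8% of those changed 4-fold and 66.7% of those changed 8-fold, with 1 false call among 16598 unchanged genes. The changed genes all had a mean of at least 1 CPM, so recovery below that level was not tested. DESeq2 1.42.0 and limma 3.58.1 served as alternatives.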

Additional observations from a re-analysis of the deposited data

Results flagged for a closer look

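In 16 of 273 groups of values checked, 1 library lay far from the rest of its group by Dixon's test, and chance flags about 1 in 20 groups. PRS regenerated library 2 accounts for 12 of the 16. It stood low for the epithelial genes CDH1 (46.66 CPM), GRHL2 (4.234 CPM), UPK3A (97.59 CPM), PSCA (327.9 CPM), KRT23 (7.829 CPM), FOXA1 (13.98 CPM), PPARG (3.715 CPM), MUC20 (22.37 CPM) and CYP2J2 (5.872 CPM), and had no read of HOXB13 (0.0 CPM). The same library stood high for HOXA13 (98.46 CPM) and for CACNA1C of muscle (317.2 CPM).

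The other 4 are single values. PRS regenerated library 1 stood low for the mitochondrial gene COX3, at 6922.0 CPM. Ileum graft library 4 stood low for SLC6A19, at 141.4 CPM. Ileum graft library 1 stood high for MSLN, at 5.432 CPM, and for the mitochondrial share of counts, at 33.9%.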

How the results depend on the processing

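The count of 2392 genes called fell to 1033 (364 higher, 669 lower) when only the 9 libraries entered the model, and list members called higher were then 73. DESeq2 called 3322, with 1759 lower. Leaving out 1 library gave 1655 (without ileum graft library 5) to 2975 genes (without ileum graft library 1), 866 to 1539 higher and 759 to 1436 lower. The numbers in the titles do not pair the libraries, and a replicate block on them gave 1836 genes (949 higher, 887 lower). With the animal as a random effect over grafts and native bladders (limma voom) 2070 were called and 69 list members were higher, and with the animal as a fixed block, which tests the difference of the changes from native, 240 (98 higher, 142 lower) and 48 list members (19 higher, 29 lower). The log2 fold change turned to -0.20 for FCGBP and -0.10 for CLCA1 with the random effect, and to -2.54 for CLCA1 with the fixed block. Neither was called, nor were those whose sign turned without 1 library: CDH1 ranged over -0.64 to 0.20, DES over -1.91 to 0.19, ACTG2 over -2.55 to 0.11 and PDGFRA over -0.18 to 1.01. The cause was not tested. Of 146 named genes called, 23 lost the call without some library (11 of them without PRS regenerated library 2). The call was lost by 18 with the 9 libraries alone, 30 with the random effect and 111 with the fixed block. The random effect came together with the change from edgeR to limma voom, and their parts cannot be told apart. None changed sign in these fits where tested. With the 9 libraries alone, 160 of the 165 named genes followed were tested, and a gene without a test was not counted as lost. With the animal as a fixed block, a fit chosen after seeing the data for each graft against its native bladder, the counts there were 0 and 2169 (0 and 2582 without it). Size factors of DESeq2, the filters on low counts, removal of mitochondrial genes and a term for the code letter kept the count of genes called within 1.5 times the reported one. In the simulation changes near 2-fold were mostly not recovered. It changed 200 genes, each at a mean of at least 1 CPM, against 2392 called here. The adjusted threshold is stricter when fewer genes change, so recovery in the data may differ.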

Other observations

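Several strongly changed genes stood outside the gene lists and were picked after their values were seen. BPIFB1, a secreted protein of mucous glands, had 15.5, 0, 3765 and 3836 CPM in PRS regenerated tissue, against 0, 2.01, 0, 0 and 0 CPM in ileum grafts (log2 fold change 12.20 ± 2.96 SE, adjusted p = 0.00638). It was highest in PRS regenerated libraries 3 and 4, as FCGBP and CLCA1 were. ACTC1, the cardiac form of muscle actin, had 748, 5122, 1.52 and 6.27 CPM in PRS regenerated tissue, against 0.0503, 3.21, 0, 0.57 and 0.0499 CPM in ileum grafts (log2 fold change 10.88 ± 2.21 SE, adjusted p = 0.00139), and was high in PRS regenerated libraries 1 and 2. MUC20, a membrane mucin, had 808, 22.4, 569.9 and 753 CPM in PRS regenerated tissue, against 1.26, 6.92, 1.41, 0.0475 and 0.998 CPM in ileum grafts (log2 fold change 7.98 ± 1.25 SE, adjusted p = 9.8e-05). SERPINA1, the protease inhibitor alpha-1 antitrypsin, had 1125, 77.05, 1913 and 900.5 CPM in PRS regenerated tissue, against 3.22, 77.3, 84.7, 12.9 and 39.03 CPM in ileum grafts, and PRS regenerated library 2 lay within the range of the ileum grafts (log2 fold change 4.53 ± 1.12 SE, adjusted p = 0.00734). BPIFB1 and ACTC1 were not called with the animal as a random effect. The log2 fold change moved furthest, with 1 library left out, to 18.69 for BPIFB1 without ileum graft library 2, 8.35 for ACTC1 without PRS regenerated library 2 and 9.17 for MUC20 without ileum graft library 2. For BPIFB1 no read was then left in ileum grafts, so 18.69 depends on a prior count and does not measure a shift.

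On the other side, enzymes that handle ammonia in gut epithelium were nearly absent from PRS regenerated tissue. CPS1, the first enzyme of the urea cycle, had no read there and 207, 237, 17.6, 64.03 and 155 CPM in ileum grafts, at least 3955-fold lower (adjusted p = 1.93e-05). OTC, the next enzyme, had 0.173, 0, 0.0972 and 0 CPM in PRS regenerated tissue, against 209, 136, 80.1, 56.7 and 445 CPM in ileum grafts (log2 fold change -11.26 ± 1.24 SE, adjusted p = 3.83e-05). CCL25, the chemokine that draws lymphocytes to the small intestine, had 3.64, 2.68, 11.6 and 12.8 CPM in PRS regenerated tissue, against 507, 1031, 430.2, 374 and 543 CPM in ileum grafts, without overlap (log2 fold change -6.23 ± 0.73 SE, adjusted p = 2.96e-06). The surface peptidases ENPEP and DPEP1 were at log2 fold changes of -7.51 ± 0.98 SE and -10.46 ± 1.93 SE (adjusted p = 1.23e-05 and 0.000566). With 1 library left out, log2 fold changes moved as far as -12.14 for OTC without PRS regenerated library 1 and -12.41 for DPEP1 without PRS regenerated library 4.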
